A study of Homo sapiens with 6 samples.

Results

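The 7 genes GDF15, STC2, STC1, FGF21, ADM2, NUPR1 and VLDLR, known from the cellular stress response, were followed in hemogenic endothelium. They were taken by symbol from the 29436 genes of the count table, and all 7 were found. The first 5 encode secreted proteins, NUPR1 encodes a nuclear protein and VLDLR a cell surface receptor. The cells were endothelial cells with blood-forming potential, grown from the human embryonic stem cell line H1 on AGM-S3 stroma. In one group, 3 libraries, alpha lipoic acid was present in the inducing medium at 100 µg/ml. The other group, also 3 libraries, was untreated. On day 8, cells positive for CD34, KDR and CD144 and negative for CD43 were sorted in aliquots of 1000 cells, and amplified polyA cDNA was sequenced. All libraries come from 1 cell line, and the labels do not say whether replicates were separate cultures, so p values reflect only how these libraries vary, and that variation may be technical.

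When translation is slowed by stress-sensing kinases that phosphorylate eIF2 alpha, the transcription factor ATF4 is made and switches on genes for amino acid supply and for a set of hormone-like proteins. GDF15 is a distant relative of TGF-beta that acts on a brainstem receptor made of GFRAL and RET. FGF21 is a liver hormone that signals through FGF receptors with beta-klotho, and ADM2 (intermedin) is a vasoactive peptide that uses the calcitonin receptor-like receptor. STC1 and STC2 are stanniocalcins, glycoproteins that block the IGF-binding-protein protease PAPP-A. In many cell types GDF15, STC2, FGF21, ADM2, NUPR1 and VLDLR are described as ATF4-dependent.

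Total counts ran from 31404734 to 41351951 in the lipoic acid libraries and from 30041494 to 32034433 in the untreated ones. Over 99% of nonzero counts were even numbers in the 3 lipoic acid libraries and untreated replicate 1 (99.13% to 99.34%), against 52.01% and 51.97% in untreated replicates 2 and 3. The sources used here do not say how even counts arose. If each fragment was counted 2 times there, the counts printed for those 4 libraries overstate the fragments behind them, while CPM is unaffected by a common factor. Results were also computed within those 4 libraries, where untreated replicate 1 is the only control and its spread is taken from the other group. All 12 endothelial markers were detected, and SPN, which encodes the CD43 excluded by the sort, had no count. Summed endothelial markers spanned 9458 to 9793 CPM (the count relative to the TMM-scaled library size) with lipoic acid and 10382 to 10536 CPM in untreated libraries. Markers of other cells also differed. Rises and falls of every marker list here stand beside 24.2% of all tested genes called higher and 23.3% lower, by the test described below. Among endoderm and hepatic markers, 10 of 11 tested rose and 0 fell, with sums of 225 to 303 CPM with lipoic acid and 79.8 to 92.5 CPM untreated (AFP, TTR and GATA4 the most abundant). Of 7 tested epithelial markers 6 rose and 0 fell, with sums of 410 to 476 CPM and 226 to 249 CPM. Trophoblast markers, of interest because placenta makes much GDF15, summed to 41.2 to 42.9 CPM with lipoic acid and 56.3 to 66.5 CPM untreated. Nearly all of that was GATA3, which endothelium expresses too, with PSG3 and TFAP2A next and too low to test, and 6 of the 13 trophoblast markers (CGA, CGB5, HLA-G, TP63, ERVW-1 and PSG1) had no count. Of 12 endothelial markers 2 rose and 6 fell, and of the most abundant KDR rose while PECAM1 and ESAM fell. The most abundant epithelial markers, KRT8, KRT18 and KRT19, all rose, KRT18 with the highest adjusted p of the 3 (0.0157, lost in 3 of 17 other settings). Mesenchymal markers had 1 rise and 6 falls among 11 tested, and summed to 1496 to 2045 CPM with lipoic acid and 1965 to 2593 CPM untreated. Of their most abundant genes THY1 fell, and COL3A1 and COL1A2 were not called. Blood and myeloid markers had 0 rises and 2 falls among 4 tested (240 to 267 CPM and 295 to 312 CPM). Nearly all of each sum was LAPTM5, with 233.4 to 260.5 CPM with lipoic acid and 281.6 to 296.1 CPM untreated. PTPRC and SPI1 were among the 6 of these 12 markers with no count. LAPTM5 and FCER1G fell and CD14 was not called. Erythroid and megakaryocytic markers had 3 rises among 4 tested (7.12 to 8.61 CPM and 1.63 to 2.21 CPM), of which PF4 and ITGA2B were the most abundant, while GP1BA was not called. The ITGA2B call was lost in 5 of 17 other settings. GYPB, the remaining rise, rests on 14, 20 and 24 counts in lipoic acid replicates 1 to 3 and 0 counts untreated. Pluripotency markers had 2 rises (LIN28A and ZFP42) and 1 fall among 4 tested, with DPPA4 not called and POU5F1 and SOX2 at 0. Mitochondrially encoded genes held 4.39% to 5.02% of counts with lipoic acid and 2.45% to 2.82% untreated. The part of other cell types and of mitochondrial RNA in the values below was not tested, and in such sorted bulk samples fewer cells of a type and less RNA per cell cannot be told apart.

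Of the 7 genes, ADM2, STC2, GDF15 and VLDLR rose with lipoic acid, STC1 fell, NUPR1 did not pass the test and FGF21 had no count in any library. The rises ranged from 3.41-fold for ADM2 to 1.23-fold for VLDLR. A gene was called when the edgeR quasi-likelihood test gave a Benjamini-Hochberg adjusted p under 0.05 over all 13780 tested genes. Of those genes 24.2% were called higher and 23.3% lower, so 4 rises and 1 fall among 6 tested genes stand against a background in which 47.4% of genes were called. The median log2 fold change was 0.32 over the 6 tested genes, against -0.01 over all genes tested. The groups did not overlap, with lipoic acid above, for the 4 genes that rose, as for 30.4% of all tested genes. With lipoic acid below they did not overlap for STC1, as for 28.8%.

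**Figure D1:**
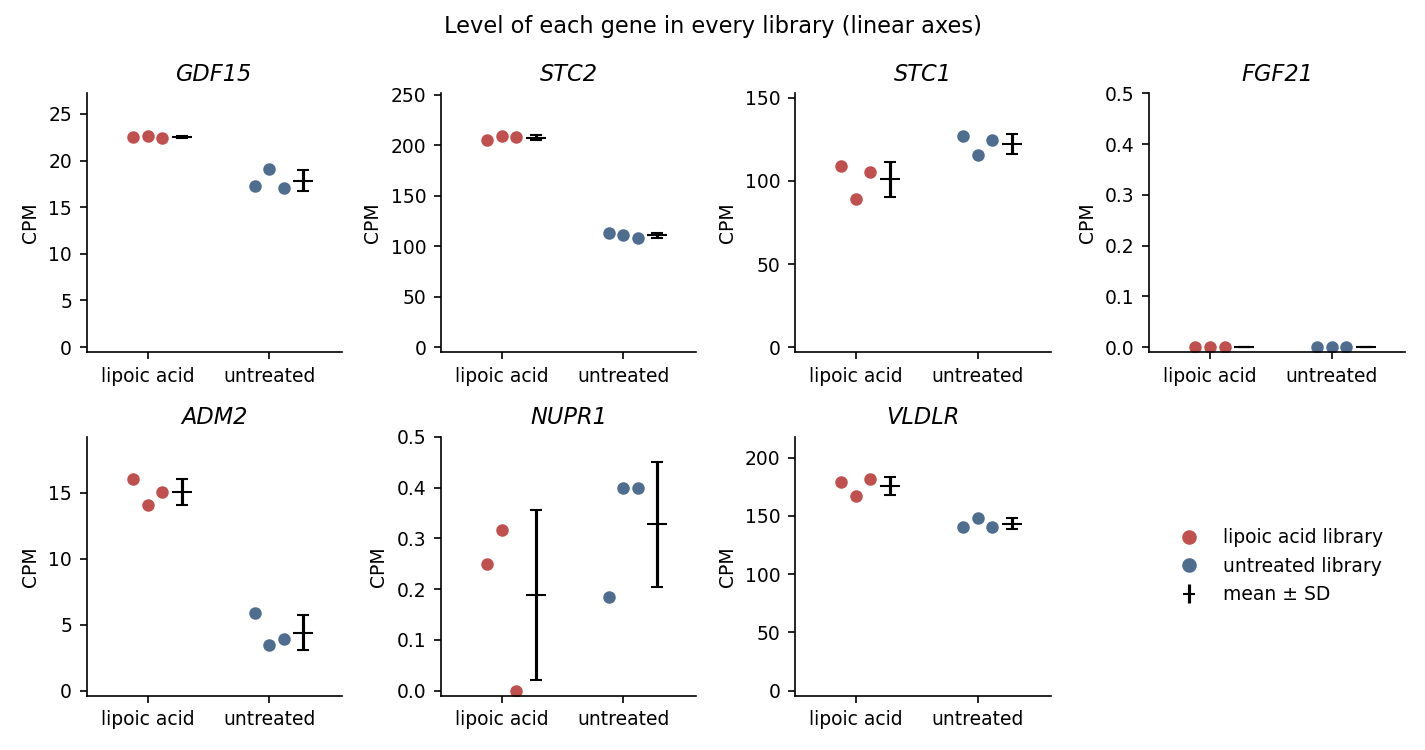
Level of each of the 7 genes in CPM (linear axis from 0) in the 3 lipoic acid (red) and 3 untreated (blue) libraries, with mean ± SD in black. STC2 lies at 204.9 to 209.5 CPM with lipoic acid and 107.8 to 113.2 CPM without it, whereas STC1 lies lower with lipoic acid and FGF21 is at 0 throughout.

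GDF15 (chromosome 19, 18374731 to 18389176, plus strand, GRCh38) was present in every library at a modest level. It had 22.6, 22.7 and 22.4 CPM in lipoic acid replicates 1 to 3, against 17.3, 19.2 and 17.1 CPM in untreated replicates 1 to 3. Every lipoic acid library was above every untreated one, with an SD of 0.141 CPM for lipoic acid and 1.14 CPM for untreated libraries. The fitted log2 fold change was 0.34 ± 0.093 (SE), a 1.26-fold rise with an adjusted p of 0.0135. Among the 3329 genes that rose, 20.3% had a smaller fold than GDF15, and the median rise was 1.53-fold. The GDF15 log2 fold change was 0.58 after correction for GC content and transcript length, and 0.38 within the 4 libraries of even counts.

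Of 8 tested receptor genes for the secreted proteins, 3 rose, 2 fell and 3 did not pass. Of 14 tested partners and processing enzymes, 3 rose, 7 fell and 4 did not pass, and of 3 tested close relatives 1 rose and 1 fell. These counts stand beside 24.2% of all tested genes called higher and 23.3% lower. The components of GDF15 signalling and maturation moved in both directions, as genes of the whole table did. RET, the signalling part of the receptor, rose 3.06-fold at very low levels, with 1.70 ± 0.147 CPM with lipoic acid and 0.554 ± 0.333 CPM untreated (adjusted p = 0.0164). That call was lost without lipoic acid replicate 3 (adjusted p = 0.0637), untreated replicate 1 (0.0507) or untreated replicate 3 (0.0609), and without untreated replicate 2 the RET log2 fold change was 2.20 against 1.61. GFRAL, the ligand-binding part, had 8 counts over the lipoic acid and 0 over the untreated libraries and was too low to test. FURIN, a convertase that cleaves TGF-beta family precursors, fell 1.58-fold, with 91.6 ± 3.92 CPM with lipoic acid and 145 ± 11.5 CPM untreated (adjusted p = 8.07e-05). PCSK6, another convertase of that family, rose 1.53-fold, with 119 ± 3.004 CPM and 77.7 ± 8.89 CPM (adjusted p = 2.77e-04). PCSK5 did not pass, at 28.4 ± 1.53 CPM and 28.9 ± 3.98 CPM (adjusted p = 0.863).

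The stanniocalcins moved apart. STC2 (chromosome 5, 173314713 to 173329503, minus strand) had 204.9, 209.5 and 208.7 CPM in lipoic acid replicates 1 to 3, against 113.2, 111.3 and 107.8 CPM in untreated replicates 1 to 3. The groups did not overlap, and the SD was 2.41 CPM with lipoic acid and 2.74 CPM untreated. STC2 rose 1.88-fold (log2 0.91 ± 0.055 SE, adjusted p = 2.00e-06), a larger rise than 64.1% of all rises. STC1 (chromosome 8, 23841915 to 23854807, minus strand) had 108.8, 89.2 and 105.1 CPM with lipoic acid, against 127.2, 115.6 and 124.6 CPM untreated. Replicate 2 was the lowest library of both groups. STC1 fell 1.21-fold (log2 -0.28 ± 0.082 SE, adjusted p = 0.0189), and 12.6% of all falls were smaller. The STC1 call was lost without lipoic acid replicate 2 (log2 -0.18, adjusted p = 0.0757), untreated replicate 1 (-0.24, 0.0633) or untreated replicate 3 (-0.26, 0.0641).

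Within a library the ratio of STC2 to STC1 counts does not depend on how libraries are scaled. It was 1.88, 2.35 and 1.98 in lipoic acid replicates 1 to 3, against 0.890, 0.963 and 0.865 in untreated replicates 1 to 3. STC2 counts thus exceeded STC1 counts in every lipoic acid library and in no untreated one. The mean ratio was 2.07 ± 0.245 with lipoic acid and 0.906 ± 0.0506 untreated (SD, n = 3 each). In the same way the ratio of GDF15 to STC2 counts was 0.109 ± 0.00145 with lipoic acid and 0.161 ± 0.00997 untreated, as GDF15 rose less than STC2.

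The proteases that stanniocalcins inhibit, and the substrates of those proteases, changed as well. PAPPA, which encodes PAPP-A and cuts IGFBP4, fell 1.65-fold, with 23.6 ± 5.18 CPM with lipoic acid and 39.0 ± 8.25 CPM untreated (adjusted p = 0.00778). PAPPA shares 0.212 of its exons with an antisense gene, and the sources used here do not say whether counting used strand. PAPPA2, its paralog that cuts IGFBP5, had 4.14, 5.57 and 4.16 CPM with lipoic acid, against 0.492, 0.200 and 0.200 CPM untreated. PAPPA2 rose 15.2-fold (log2 3.93 ± 0.40 SE, adjusted p = 4.70e-05), with a log2 value of 4.52 without untreated replicate 1 and 3.22 in the 4 libraries of even counts. Its untreated level rests on 16, 6 and 6 counts in replicates 1 to 3, so the size of that fold is uncertain. IGFBP4 fell 1.58-fold, with 1099 ± 39.8 CPM and 1731 ± 81.9 CPM (adjusted p = 1.10e-05). IGFBP5 fell 5.63-fold, with 169 ± 15.2 CPM with lipoic acid and 952 ± 10.3 CPM untreated (adjusted p = 1.89e-08).

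**Figure D2:**
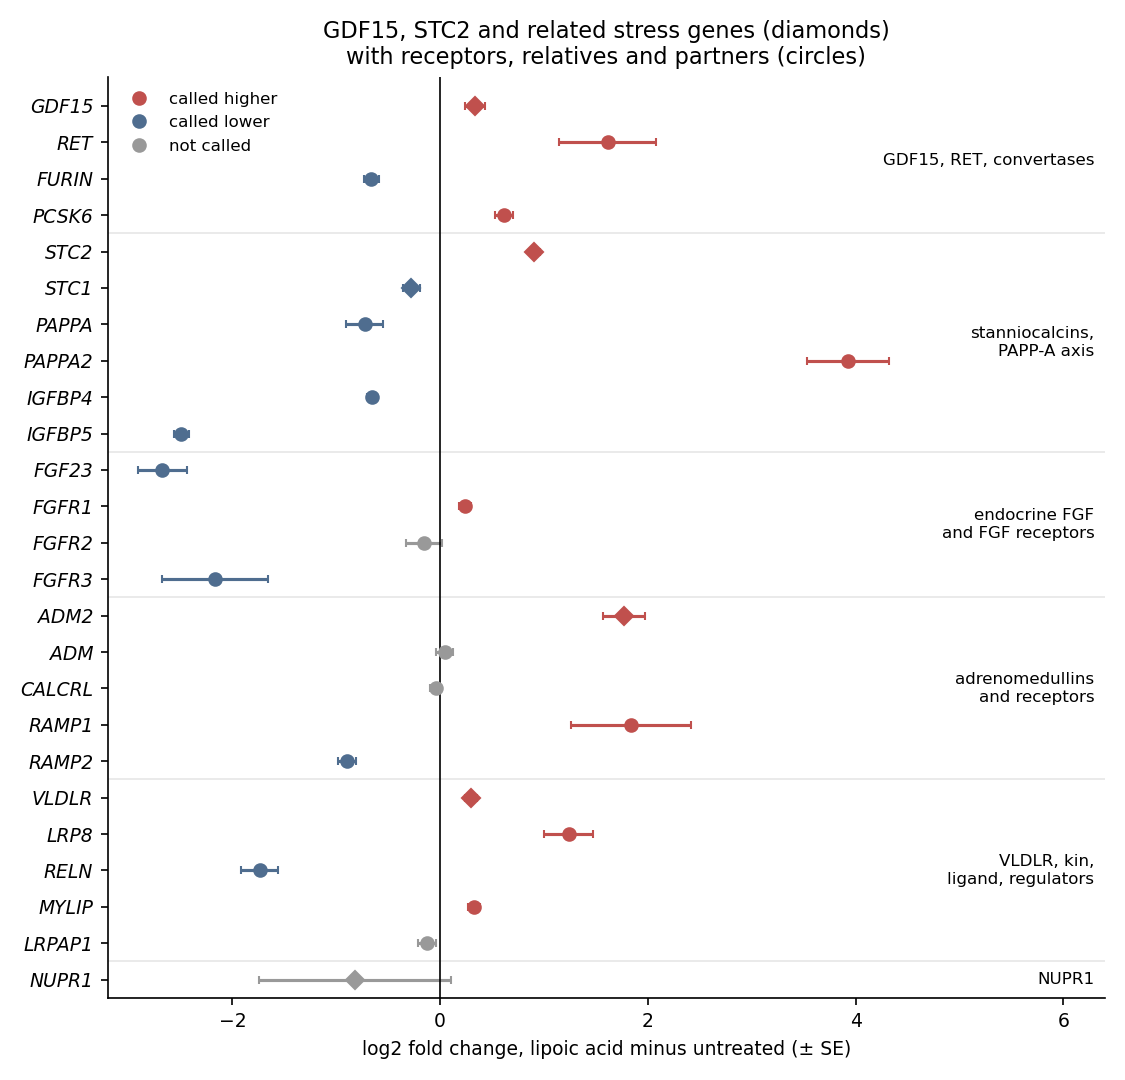
Fitted log2 fold change, lipoic acid minus untreated, with SE bars, for the tested genes (diamonds) and for receptors, relatives and partners (circles), coloured by call. STC2 (0.91) and STC1 (-0.28) lie on opposite sides of 0, ADM2 (1.77) was called higher and ADM (0.04) was not called, and PAPPA2 (3.93) and FGF23 (-2.67) are the extremes shown.

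FGF21 (chromosome 19, 48755559 to 48758333, plus strand) had 0 counts in all 6 libraries. With even counts divided by 2, 3 counts over a group would be 0.0532 CPM with lipoic acid and 0.039 CPM untreated, so higher levels than these would have been seen. That floor covers counting error only. AFP, a hepatic marker, had 60.1 ± 15.1 CPM with lipoic acid and 5.85 ± 1.47 CPM untreated. Of the FGF21 receptors, FGFR1 rose 1.18-fold, with 273 ± 9.43 CPM and 231 ± 13.4 CPM (adjusted p = 0.00889). FGFR1 lost its call among the 4 even-count libraries (0.0839). FGFR3 fell 4.48-fold from a low level, with 0.523 ± 0.329 CPM with lipoic acid and 2.39 ± 0.754 CPM untreated (adjusted p = 0.0062). KLB, beta-klotho, had 8 counts over the lipoic acid and 34 over the untreated libraries and was too low to test.

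FGF23, the phosphate-regulating hormone of the same endocrine FGF family, was abundant. It had 96.8, 46.8 and 101.2 CPM in lipoic acid replicates 1 to 3, against 543.4, 480.3 and 542.8 CPM in untreated replicates 1 to 3. Replicate 2 was again the lowest library of each group, and the groups did not overlap. FGF23 fell 6.38-fold (log2 -2.67 ± 0.23 SE, adjusted p = 1.97e-05), and FGF19, the third member of that family, had no count.

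ADM2 (chromosome 22, 50481556 to 50486440, plus strand) showed the largest rise of the 7 genes. It had 16.0, 14.1 and 15.1 CPM in lipoic acid replicates 1 to 3, against 5.91, 3.43 and 3.89 CPM in untreated replicates 1 to 3. Every lipoic acid library was above every untreated one. ADM2 rose 3.41-fold (log2 1.77 ± 0.20 SE, adjusted p = 1.01e-04), more than 80.6% of all rises. Its abundant relative ADM, adrenomedullin, did not pass, at 197 ± 5.02 CPM with lipoic acid and 191 ± 23.8 CPM untreated (log2 0.04 ± 0.083 SE, adjusted p = 0.689). The ratio of ADM2 to ADM counts was 0.0792, 0.0725 and 0.0778 with lipoic acid, against 0.0322, 0.0157 and 0.0227 untreated, with no overlap.

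The receptor that both peptides use is CALCRL with one of 3 RAMP proteins, which set its ligand preference. CALCRL did not pass, at 579 ± 21.8 CPM with lipoic acid and 597 ± 25.8 CPM untreated (adjusted p = 0.527). RAMP2 fell 1.86-fold, with 37.4 ± 0.627 CPM and 69.6 ± 7.98 CPM (adjusted p = 3.63e-05), and shares 0.359 of its exons with an antisense gene. RAMP1 rose 3.57-fold at a low level, with 1.90 ± 0.444 CPM and 0.528 ± 0.429 CPM (adjusted p = 0.024). The RAMP1 call was lost without lipoic acid replicate 1 (0.0802), lipoic acid replicate 3 (0.0796) or untreated replicate 3 (0.0799) and in the 4 libraries of even counts (0.149), where the RAMP1 log2 fold change was 0.96 against 1.84. Without untreated replicate 1 the RAMP1 log2 value was 2.67. RAMP3 had no count.

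NUPR1 (chromosome 16, 28532708 to 28539174, minus strand), a small chromatin-associated protein induced by stress, was barely detected. It had 10, 10 and 0 counts in lipoic acid replicates 1 to 3, against 6, 12 and 12 counts in untreated replicates 1 to 3, or 0.189 ± 0.167 CPM and 0.328 ± 0.124 CPM. The counts of all lipoic acid libraries and of untreated replicate 1 are even-number counts, so they may stand for fewer fragments. The groups overlapped, and the log2 fold change of -0.82 ± 0.92 (SE, adjusted p = 0.488) showed no change detectable at this depth. Of partners listed for it, the acetyltransferase gene CREBBP fell 1.27-fold (27.5 ± 0.337 CPM and 35.02 ± 2.17 CPM, adjusted p = 0.00496). EP300 did not pass, at 12.5 ± 0.834 CPM and 10.5 ± 1.22 CPM (adjusted p = 0.168). TCF3 fell 1.16-fold (44.9 ± 3.27 CPM and 52.2 ± 2.71 CPM, adjusted p = 0.0428). The TCF3 log2 fold change of -0.22 lost its call with DESeq2 (0.0625), after correction for GC content and length (0.124), and without lipoic acid replicate 2 (0.109), lipoic acid replicate 3 (0.204) or untreated replicate 1 (0.129).

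VLDLR (chromosome 9, 2621834 to 2660053, plus strand), a receptor for reelin and for lipoproteins with apolipoprotein E, had 178.7, 166.9 and 181.4 CPM with lipoic acid, against 140.5, 148.5 and 140.6 CPM untreated. The groups did not overlap. VLDLR rose 1.23-fold (log2 0.30 ± 0.060 SE, adjusted p = 0.00269), and 14.8% of all rises were smaller. After the same correction for GC content and length the VLDLR value was 0.15 and was not called (adjusted p = 0.11).

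Around VLDLR, its closest relative LRP8 rose 2.36-fold, with 18.5 ± 1.55 CPM with lipoic acid and 7.82 ± 2.84 CPM untreated (adjusted p = 0.00198). RELN, which encodes the ligand reelin, fell 3.33-fold, with 8.99 ± 2.36 CPM and 30.1 ± 2.80 CPM (adjusted p = 4.98e-05). MYLIP, a ubiquitin ligase that sends these receptors to degradation, rose 1.25-fold, with 111 ± 2.24 CPM and 88.7 ± 2.27 CPM (adjusted p = 0.00151). Of 11 tested genes of the related LRP and SORL1 receptors, 2 rose, 2 fell and 7 did not pass (median log2 -0.06). Over all tested genes 24.2% were called higher and 23.3% lower. Besides LRP8, LRP1 rose 1.43-fold. The LRP1 log2 fold change of 0.51 lost its call when lipoic acid replicate 1 was left out (adjusted p = 0.0525) and among the 4 even-count libraries (0.0792). LRP10 fell 1.23-fold and LRP11 1.45-fold, the last with 0.467 of its exonic length shared with other genes on its strand.

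Per kilobase of annotated exons, the order of levels changed with treatment only at the top. With lipoic acid the levels were 33.9 ± 0.394 CPM per kb for STC2, 24.4 ± 2.51 for STC1, 18.8 ± 0.827 for VLDLR, 10.8 ± 0.0675 for GDF15 and 3.52 ± 0.233 for ADM2. In untreated libraries they were 29.5 ± 1.46 CPM per kb for STC1, 18.1 ± 0.448 for STC2, 15.3 ± 0.490 for VLDLR, 8.55 ± 0.546 for GDF15 and 1.03 ± 0.308 for ADM2. Each gap between neighbours exceeded the larger SD of the pair. NUPR1 came last of the detected genes at 0.0332 ± 0.0294 and 0.0577 ± 0.0218 CPM per kb. The exon length is that of all annotated transcripts together, so a gene with many unused exons is placed too low.

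Promoter sequence was compared because the 4 genes that rose are often grouped as targets of the same factor while FGF21, of the same group, had no count. RefSeq windows (GRCh38.p14) were available for 5 of the 7 genes; STC1 and NUPR1 were not matched. The start is that of the RefSeq table, which for GDF15 and STC2 lies inside the longer GENCODE gene given above. The 250 bases before it are shown 5′ to 3′ on the gene's strand, with capitals for TGATGNAA (the composite element of C/EBP and ATF factors) and for GCGTG or ACGTG (cores of the hypoxia response element), each searched on both strands.
GDF15, chr19:18385908-18386157, plus strand: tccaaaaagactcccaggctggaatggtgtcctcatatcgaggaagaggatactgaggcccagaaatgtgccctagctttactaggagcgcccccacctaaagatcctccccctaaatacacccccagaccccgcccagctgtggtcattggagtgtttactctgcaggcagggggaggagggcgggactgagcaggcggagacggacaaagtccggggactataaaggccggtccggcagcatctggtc
STC2, chr5:173328415-173328664, minus strand: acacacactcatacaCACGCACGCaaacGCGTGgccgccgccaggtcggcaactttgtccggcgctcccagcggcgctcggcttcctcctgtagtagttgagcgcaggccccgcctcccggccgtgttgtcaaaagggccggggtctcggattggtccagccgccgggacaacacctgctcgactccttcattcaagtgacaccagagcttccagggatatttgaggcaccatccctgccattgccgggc
ADM2, chr22:50481293-50481542, plus strand: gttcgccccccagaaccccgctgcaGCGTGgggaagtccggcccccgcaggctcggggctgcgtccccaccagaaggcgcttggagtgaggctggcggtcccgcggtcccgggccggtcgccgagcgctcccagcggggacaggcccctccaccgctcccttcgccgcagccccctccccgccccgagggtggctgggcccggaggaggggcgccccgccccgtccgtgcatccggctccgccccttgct
FGF21, chr19:48755274-48755523, plus strand: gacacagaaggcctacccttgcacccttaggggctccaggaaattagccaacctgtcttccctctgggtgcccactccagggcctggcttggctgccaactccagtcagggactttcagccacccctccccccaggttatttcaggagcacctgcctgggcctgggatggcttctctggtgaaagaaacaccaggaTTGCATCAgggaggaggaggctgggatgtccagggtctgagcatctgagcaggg

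The composite element was found once among the 5 windows, in FGF21, on the minus strand from 54 bases before the start. It occurs in 3.14% of all 35116 RefSeq windows of this length and in 1.85% of those of tested genes. GCGTG occurs 3 times in STC2 (from -235, -231 and -222), the first pair sharing 1 base, once in ADM2 (-225) and 5 times in VLDLR (from -161, -157, -143, -110 and -31), whose window is not printed. It occurs in 32.2% of all windows and in 41.9% of those of tested genes. ACGTG (18.5% of all windows) and the core TGACG of the cyclic AMP response element (21.2%) were in none of the 5. The antioxidant response core TGACNNNGC, found in 10.9% of all windows, occurs once in VLDLR at -35, where it overlaps the last GCGTG. The endoplasmic reticulum stress element (its full consensus), found in 0.074% of all windows, was in none. A match describes letters only, and sites outside these 250 bases were not searched.

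Genes of the pathway that the secreted factors report on, and regulators of other stress pathways, were read from the same fit. Of 22 tested stress regulators, 11 rose, 1 fell and 10 did not pass (median log2 0.25). All tested genes were called higher in 24.2% and lower in 23.3%. The list joins regulators of the integrated stress response to those of other stress pathways, among them ERN1, XBP1, ATF6, TFEB and NFE2L2. Of these, ERN1 and XBP1 were among the rises and TFEB was the fall. ATF4 itself rose 1.995-fold, with 874 ± 13.7 CPM with lipoic acid and 438 ± 11.6 CPM untreated (adjusted p = 4.18e-07). ATF3, an ATF4-induced factor, rose 4.05-fold, with 51.9 ± 7.503 CPM and 12.8 ± 0.340 CPM (adjusted p = 1.09e-06). DDIT3, which encodes CHOP, rose 2.93-fold, with 43.3 ± 1.56 CPM and 14.8 ± 1.59 CPM (adjusted p = 2.15e-06), though genes on the other strand cover 0.316 of its exons. ERN1, the sensor IRE1, rose 3.09-fold, with 21.9 ± 3.28 CPM and 7.06 ± 0.451 CPM (adjusted p = 1.73e-05).

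Among intracellular ATF4 targets, 20 of the 23 that were tested rose, 0 fell and 3 were not called. The shares over all tested genes were 24.2% called higher and 23.3% lower. The median log2 fold change of these targets was 1.23, against 0.32 for the 6 tested stress factor genes. SLC7A11, ASNS, PSAT1 and WARS had the lowest p values, with log2 fold changes of 3.14, 2.03, 1.67 and 1.33 (adjusted p at most 2.08e-07). In ASNS 0.446 of the exonic length is shared with another gene on its strand. Of the 6, ADM2 at 1.77 lay above the median of that list, and STC2 (0.91), GDF15 (0.34), VLDLR (0.30), STC1 (-0.28) and NUPR1 (-0.82) lay below it. No test was made of the difference between the lists.

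**Figure D3:**
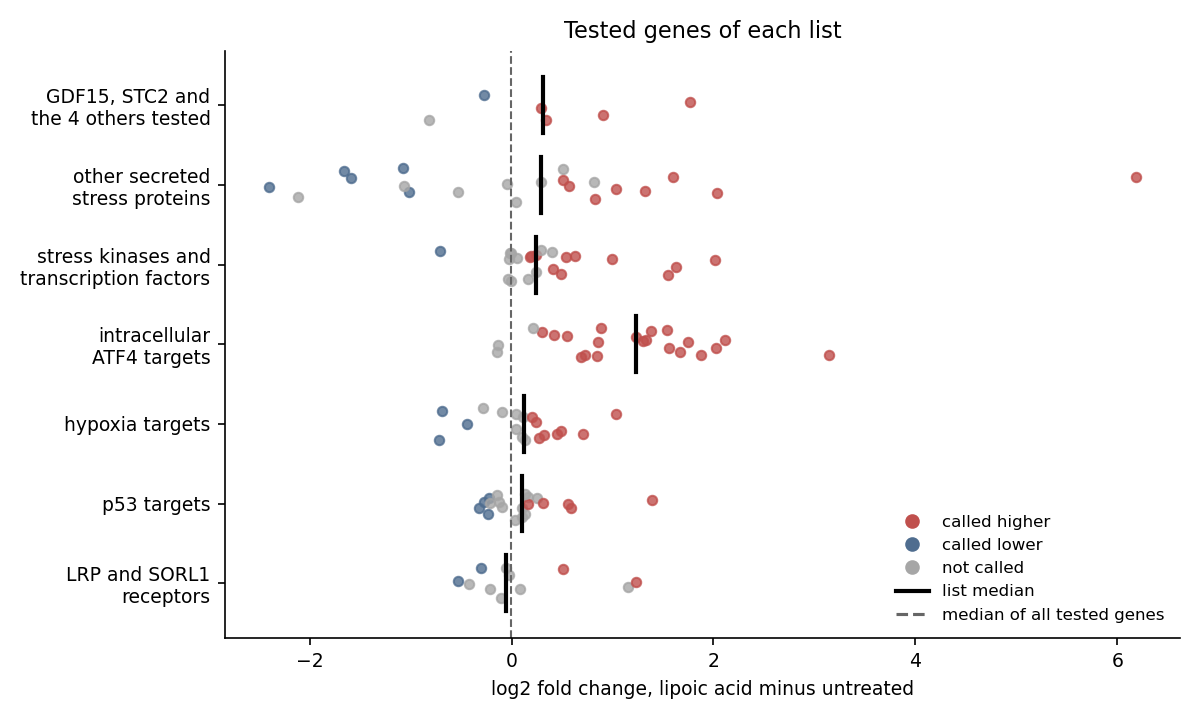
Log2 fold change, lipoic acid minus untreated, of every tested gene of 7 lists, coloured by call, with list medians in black and the median of all tested genes dashed. Intracellular ATF4 targets centre at 1.23 with 0 falls, whereas the GDF15 and STC2 group centres at 0.32 and holds calls in both directions.

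Other secreted stress proteins had 8 rises, 5 falls and 8 genes that did not pass among 21 tested (median log2 0.29). Of all tested genes 24.2% were called higher and 23.3% lower, so calls in both directions are common to the whole table. CRELD2, a stress-induced protein of the endoplasmic reticulum, rose 3.03-fold, with 129 ± 2.996 CPM with lipoic acid and 42.6 ± 3.17 CPM untreated (adjusted p = 2.60e-07). The chemokine gene CXCL8 had 50.0, 32.6 and 45.1 CPM with lipoic acid, against 1.11, 0 and 0.598 CPM untreated. Its log2 fold change was 6.19 (adjusted p = 6.69e-06), with 7.15 without untreated replicate 1, 5.26 in the 4 libraries of even counts and 7.51 by limma voom. TNFSF10, the death ligand TRAIL, fell 3.16-fold, with 37.0 ± 0.144 CPM and 117 ± 9.10 CPM (adjusted p = 2.21e-07). HBEGF, a ligand of the EGF receptor, fell 2.02-fold, with 138 ± 2.05 CPM and 279 ± 15.5 CPM (adjusted p = 1.57e-06).

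Targets of p53 and of hypoxia-inducible factors were also listed, and the part of any of these factors in the changes above was not tested. Of 20 tested p53 targets, 5 rose, 4 fell and 11 did not pass (median log2 0.10), beside 24.2% of all tested genes called higher and 23.3% lower. BBC3, the proapoptotic factor PUMA, rose 2.63-fold, with 2.62 ± 0.163 CPM and 0.992 ± 0.238 CPM (adjusted p = 0.00519). CCNG1 rose 1.51-fold, XPC 1.47-fold and the death receptor gene TNFRSF10B 1.24-fold (highest adjusted p of the 3, 0.00453). Genes on the other strand cover 0.304 of the exons of XPC. BBC3, CCNG1, XPC and TNFRSF10B, named for their low p, are all rises. The 4 falls were FAS, TP53I3, TIGAR and PLK3 (1.17-fold to 1.25-fold, highest adjusted p 0.0418). CDKN1A, the most abundant of the list, did not pass, at 739 ± 20.7 CPM with lipoic acid and 661 ± 52.5 CPM untreated (adjusted p = 0.0552). MDM2 did not pass either (adjusted p = 0.384). Of 18 tested hypoxia targets, 8 rose, 3 fell and 7 did not pass (median log2 0.12). These counts stand beside the same shares over all tested genes, 24.2% higher and 23.3% lower. The glucose transporter gene SLC2A1 fell 1.62-fold, with 1428 ± 44.0 CPM with lipoic acid and 2306 ± 39.6 CPM untreated, and the prolyl hydroxylase gene EGLN3 fell 1.65-fold. The histone demethylase gene KDM3A rose 1.40-fold and MXI1, a MYC antagonist, 1.64-fold (highest adjusted p of these 4, 1.05e-04).

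Genes with the most similar profile were found by the root mean square difference of log2(CPM + 0.5), set to the untreated mean, over the 6 libraries, among the 9788 genes that averaged 5 CPM or more. For STC2 these were GABARAPL1, an autophagy gene of the ATG8 family, PDIA6, a disulfide isomerase of the endoplasmic reticulum, and the transcription factor gene MAF, at 0.0276, 0.0345 and 0.0396 log2 units. For GDF15 they were the zinc transporter gene SLC30A5, C1orf43 and the scaffold gene DLG1, at 0.0296, 0.0313 and 0.0328. For VLDLR they were NATD1, SSR1 and SEH1L, at 0.0254, 0.0281 and 0.0285, and for STC1 CLSTN1, LPCAT2 and TUSC2, at 0.0263, 0.0321 and 0.0348. For ADM2 the closest was PYCR1, an enzyme of proline synthesis, at 0.145, followed by KREMEN1 and INA at 0.153 and 0.156. For NUPR1, with few counts, HLA-B, CD53 and SMUG1 were closest at 0.144 to 0.153, among 9789 genes. NUPR1 was at most 0.399 CPM in any library, under the 0.5 CPM added, so that likeness carries little information. All 6 libraries and both groups are shared by every such pair of genes.

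**Figure D4:**
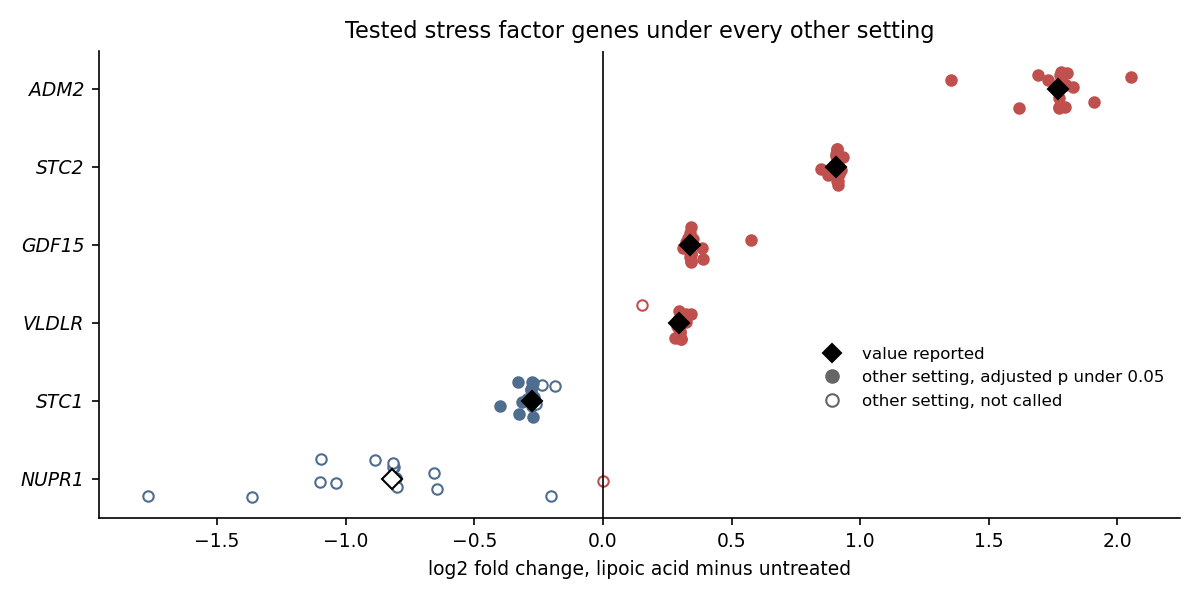
Log2 fold change, lipoic acid minus untreated, of the 6 tested genes in the fit reported (black) and under every other setting (circles, filled where called). ADM2, STC2 and GDF15 were called higher throughout, VLDLR lost its call under 1 setting and STC1 under 3, and NUPR1 was never called.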

How the data were processed

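The authors deposited raw counts per gene symbol. The submitters' processing notes name HISAT2, featureCounts, DESeq2 and hg38. Their versions, the annotation, the strand setting and the handling of multiply aligned reads are not given in the sources used here. Counts were used as deposited. Genes were kept by filterByExpr (13780 of 29436), TMM set the library sizes, and the contrast of lipoic acid with untreated used the quasi-likelihood F test of edgeR 4.0.16 in R 4.3.3, with group as the only term and Benjamini-Hochberg adjustment over all tested genes. FGF21 did not pass the filter. SE is the log2 fold change divided by the square root of F. Levels are CPM with mean ± SD of 3 libraries. DESeq2 1.42.0, limma 3.58.1 voom and 15 other settings were alternatives. Floors are 3 counts, with even counts halved in the 4 libraries of even counts, and cover counting error only, since cDNA was amplified by PCR. Positions came from GENCODE v29 (GRCh38), which held 99.36% of symbols. Promoters came from RefSeq (GRCh38.p14).

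The 7 genes and all lists were chosen with earlier results of these data known. The genes named were the 7, every called receptor, relative and partner, the 4 called genes of lowest p of each other pathway list, the 3 most similar genes for each tested one, and the 3 most abundant markers of each cell type. Genes beyond these, called or not, are named where they complete a receptor, family or list. They were chosen after their values were seen, as were those under other observations. Some genes of the pathway lists are not reported here.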

Additional observations from a re-analysis of the deposited data

How the results depend on the processing

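Of 17 other settings, 16 called the same number of the 7 genes higher, 4, and the fit with a GC content and length trend removed called 3, VLDLR (0.15) not being among them. ADM2, STC2 and GDF15 were called higher in all 17, with log2 fold changes of 1.35 to 2.05, 0.85 to 0.93 and 0.31 to 0.58 and adjusted p of at most 0.00115, 6.20e-05 and 0.0473. STC1 ran from -0.32 to -0.18 when 1 library was left out and lost its call in 3 of those 6 fits. NUPR1 reversed to 0.0011 in the 4 libraries of even counts, and it was too low to test with even counts halved or a filter of 1 CPM. In those 4 libraries HLA-B (0.11) and CD53 (0.11), uncalled in the fit reported, also changed sign. Genes called higher over the whole table numbered 2669 to 3575. The cause of these differences was not tested.

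The titles number the libraries 1 to 3 in both groups. Deviations from group means correlated at 0.0996, 0.0852 and 0.0975 for equal numbers. Each was just under the 0.1 set for treating numbers as pairs, so the fit reported has no pairing. Every library still correlated best with its own number, and unequal numbers correlated at -0.0759 to -0.00325. Whether libraries of equal number were handled together was not tested. With the replicate number as a block, 3354 genes were called higher and 3203 lower, and the log2 fold changes of STC2, GDF15, ADM2 and STC1 were 0.91, 0.34, 1.80 and -0.28, all called. Of 71 other called genes named by the rules given above, 56 were called in every setting and 15 lost the call in at least 1, with 0 reversed. Depth limits NUPR1, GFRAL and KLB, with at most 34 counts a group.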

Other observations

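Some further genes tied to the stress response were not called or rose little. INHBE, a liver-enriched hormone gene described as an ATF4 target, had 0.782 ± 0.366 CPM with lipoic acid and 0.552 ± 0.0544 CPM untreated (edgeR, adjusted p = 0.431). CHAC1, a glutathione-degrading enzyme used as a marker of ATF4 and CHOP activity, had 65.3 ± 7.26 CPM with lipoic acid and 71.7 ± 11.1 CPM untreated (adjusted p = 0.358), with overlapping groups. TRIB3, another target of both factors, had 241 ± 10.4 CPM and 212 ± 9.21 CPM, a 1.14-fold rise (adjusted p = 0.0263). NFE2L2, which encodes NRF2, did not pass, at 133 ± 5.99 CPM and 128 ± 7.57 CPM (adjusted p = 0.55).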
